A study of Mus musculus with 18 samples.

Results

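The comparison described here is that of 2 mouse cancer cell lines grown as hanging-drop spheroids with no fibroblasts added: 168FARN, labelled as a breast cancer line, and LLC1 (Lewis lung carcinoma), labelled as a lung cancer line. The 6 libraries with no co-cultured cells were taken, 3 of each line, out of 18 in the series. The other 12 were spheroids of the same lines with fibroblasts, and they are used below only to see which differences between the lines held there. For LLC1 the added cells were wound healing fibroblasts and for 168FARN they were MMTV-CAF, fibroblasts from mammary tumours of MMTV-PyMT mice, in both cases either WT (control guide) or with a PRRX1 deletion made with a guide RNA (sgPrrx1). None of the 6 spheroid libraries without fibroblasts carried a genotype or a treatment other than the luciferase and GFP tags of the cancer cells. After aggregation in the drops the spheroids were shaken for a week, and the GFP-tagged cancer cells were the source of the RNA. Each tumour type is represented by a single line, so the 3 libraries of a line are samples of the same cells. The labels do not say that they came from separate cultures, and the p-values then measure only the spread between these samples, which may be technical.

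168FARN derives from a mammary tumour that arose in a BALB/c mouse, and LLC1 comes from a lung carcinoma of a C57BL mouse. Carcinomas start from epithelial cells, which hold together through E-cadherin and keratins. Cells that have gone through an epithelial-mesenchymal transition lose these genes and use transcription factors of the Snail, Zeb, Twist and Prrx families, and they lay down matrix much as fibroblasts do. Long-passaged lines also keep, or lose, marks of the place in the body they came from, among them the Hox genes and imprinted genes.

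The values of each line stand in a table of their own. Line and table therefore cannot be told apart, nor can line and sequencing run, so every difference below is between 2 lines processed separately. Genes were joined by symbol, and 24443 symbols were found in both tables. The totals of the 3 168FARN libraries were 48489407 to 64487606 counts and those of the LLC1 libraries 77077913 to 80403508. Values are given as CPM, counts divided by the library total and put on a common scale, with totals corrected by TMM factors, which set most genes level between libraries. A count of 3 in a library corresponded to 0.0456 to 0.0601 CPM in 168FARN and to 0.0384 to 0.0401 CPM in LLC1. This is taken as the floor, and a gene with at most 3 counts in every library of a line is called off there. A fold against such a line is a lower bound set at the floor. The floors cover counting error only, while SDs and SEs come from the spread of the libraries. Libraries of a line were alike (Pearson r of log2 CPM across genes 0.9973 to 0.9977 in 168FARN and 0.9947 to 0.997 in LLC1), while r between lines was 0.8272 to 0.8331.

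The lines differed at most of their genes. Of 13414 genes tested with edgeR's quasi-likelihood test, 11158 (83.2%) had a Benjamini-Hochberg adjusted p under 0.05, 5726 of them (42.7%) higher in 168FARN and 5432 (40.5%) higher in LLC1. With replicates this close, a gene passed the test at a small difference, and a second rule of at least 4-fold was therefore used with it. Under that rule 2822 genes (21.0%) were called, 1537 (11.5%) higher in 168FARN and 1285 (9.58%) higher in LLC1. These shares are the background against which the counts of each gene group are given. A gene that passed the filter on low counts only through the line where it is high had to differ, so counts and medians over the tested members of a list describe those members and not the whole list. The median log2 fold change (168FARN minus LLC1, so that positive values are higher in 168FARN) was 0.02 over all genes, and its median size was 0.77. A stricter group was also taken, of genes at 5 CPM or more in every library of a line and off in the other. There were 138 genes on in 168FARN and off in LLC1, 120 of them at 0 counts in all 3 LLC1 libraries, and 178 genes on in LLC1 and off in 168FARN, 134 of them at 0 counts in all 3 168FARN libraries.

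**Figure D1:**
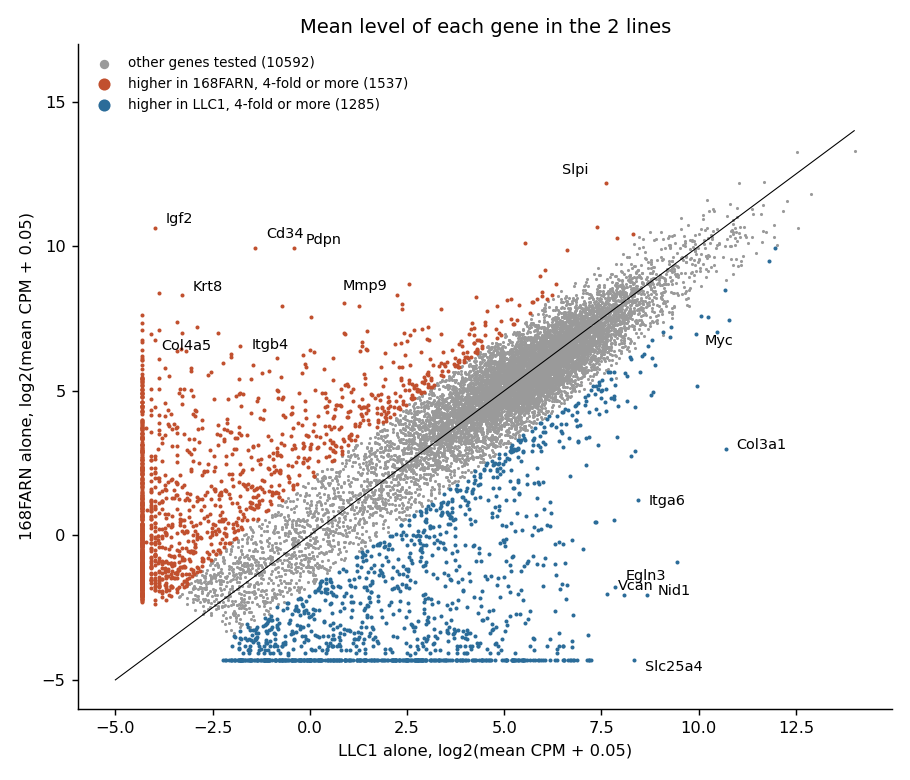
Each point is 1 of 13414 genes, with log2 of its mean CPM plus 0.05 in LLC1 alone on the horizontal axis and in 168FARN alone on the vertical axis (n = 3 libraries a line). The 1537 orange-red and 1285 blue points are genes called with at least a 4-fold difference, and the straight rows of points at the left and at the bottom are genes with no counts in LLC1 or in 168FARN.

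The labels name a breast and a lung cancer line, and most of the defining markers of these epithelia were below 1 CPM in both. Of 6 epithelial markers (Cdh1, Epcam, Krt8, Krt18, Krt5, Krt14), 5 stayed below 1 CPM in all 6 libraries. Cdh1, the gene of E-cadherin, had 3, 0 and 0 counts in 168FARN and 4, 0 and 0 in LLC1, and Epcam had 0 counts in all 6. The exception was Krt8, a keratin of simple epithelia, at 313, 336 and 314 CPM in 168FARN. In LLC1 Krt8 had 12, 0 and 0 counts (log2 fold change 12.53 ± 0.457 SE, edgeR adjusted p = 1.7e-07). Krt18, the usual partner of Krt8 in filaments, had 4 counts in each 168FARN library and 3, 0 and 0 in LLC1. In the wider list of epithelial junctions and keratins, 9 of 33 genes passed the filter, and 7 of these were called higher in 168FARN and 2 higher in LLC1. Several, Krt7 and Krt8 among them, passed only through 168FARN, so nothing is read from the count. Pkp3, a plakophilin of desmosomes, was at 39.3 CPM in 168FARN and 7.31 in LLC1. Krt7, another keratin of simple epithelia, was at 6.06 CPM in 168FARN and off in LLC1, while Elf3, an epithelial transcription factor, was at 5.20 and 12.2 CPM.

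The lung markers Nkx2-1, Sftpc, Sftpb, Scgb1a1 and Foxj1 were all 5 below 1 CPM in all 6 libraries, 3 of them at 0 counts throughout. The basal mammary markers Krt5, Krt14 and Trp63 were likewise all 3 below 1 CPM. Of 6 tested genes of the wider basal list, 5 were called higher in LLC1 (40.5% of all genes), 2 of them by at least 4-fold (9.58%), and none higher in 168FARN. The median log2 fold change was -1.80. Krt5, Krt14 and Trp63 were not among the tested genes. Egfr, at 0 counts in 168FARN and 0.689 CPM in LLC1, passed only through LLC1, so nothing is read from the count. Procr, a receptor for protein C, was at 35.5 CPM in LLC1 and 10.7 in 168FARN. Among the luminal markers, Elf5 and Prlr were at 0 counts in all 6 libraries. Gata3, a luminal transcription factor, was at 6.64 ± 0.247 CPM (SD, n = 3) in 168FARN and 3.50 ± 0.396 in LLC1. Esr1, the oestrogen receptor, was at 1.71 ± 0.169 CPM in 168FARN and 12.5 ± 1.47 in LLC1 (log2 fold change -2.87 ± 0.129, adjusted p = 4.8e-07). In the wider luminal list 6 of 10 tested genes were called higher in 168FARN (42.7% of all genes), 4 of them by at least 4-fold (11.5%). In LLC1 4 were higher (40.5%), 3 by at least 4-fold (9.58%), and the median log2 fold change was 1.02. Mfge8, a milk fat globule protein, was at 508 CPM in 168FARN and 234 in LLC1. In the wider lung list 5 of 11 tested genes were called higher in 168FARN and 4 higher in LLC1 (42.7% and 40.5% of all genes). By at least 4-fold there were 3 in each direction (11.5% and 9.58% of all genes). Aqp5, a water channel of alveolar cells and glands, was at 137 ± 2.74 CPM in 168FARN and 6.36 ± 0.439 in LLC1, and Napsa, an aspartic protease of the alveolus, at 32.4 ± 1.81 and 1.05 ± 0.221. Foxa2, a factor of endoderm-derived epithelia, was at 9.93 ± 0.719 CPM in LLC1 and 0 counts in 168FARN.

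Of 18 genes of the leukocyte list 7 passed the filter, 6 of them called higher in 168FARN and 1 in LLC1. Csf1r, Cd52 and Coro1a were among the 6 and averaged at most 0.126 CPM in LLC1, so they passed only through 168FARN and nothing is read from the count. Lyz2, a lysozyme of myeloid cells, was at 24.7 CPM in 168FARN and 0.337 in LLC1, and Cd14, a receptor for bacterial lipopolysaccharide, at 36.8 and 11.7. The defining leukocyte markers Ptprc and Cd3e were at 0 counts in all 6 libraries and Csf1r was below 1 CPM. Cd68, a lysosomal protein of macrophages that many cultured cells also make, was at 23.2 ± 0.703 CPM in 168FARN and 16.9 ± 0.697 in LLC1. The endothelial markers Pecam1, Cdh5 and Kdr were all 3 below 1 CPM. Fibroblast markers were mixed: Pdgfra was at 67.3 ± 0.778 CPM in 168FARN and 81.9 ± 9.60 in LLC1, Pdgfrb at 41.8 ± 1.30 and 5.85 ± 0.0909, and Col1a2 below 1 CPM in all 6. The summed level of the 7 fibroblast markers was 118 to 123 CPM in 168FARN and 1708 to 1812 CPM in LLC1, nearly all of the latter from Col3a1.

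**Figure D2:**
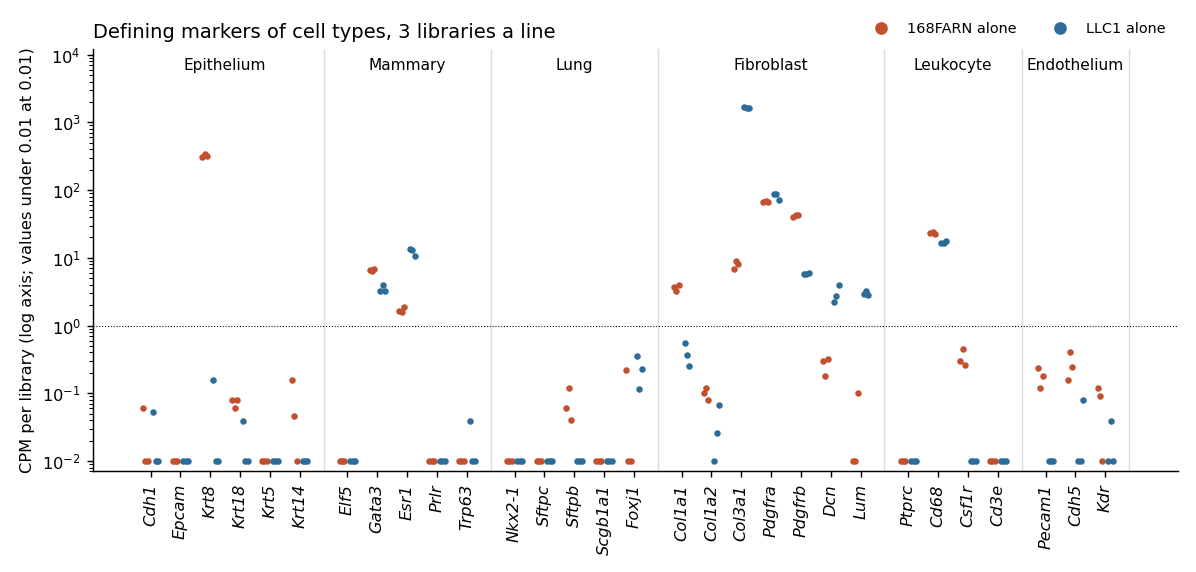
Each point is the CPM of a gene in 1 library (log axis, values under 0.01 drawn at 0.01), orange-red for 168FARN alone and blue for LLC1 alone, 3 libraries a line. Only Krt8 in 168FARN stands above the dotted line at 1 CPM among the epithelial markers, no lung marker does, and Col3a1 in LLC1 lies between 1621 and 1712 CPM.

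Mesenchymal transcription factors were expressed in both lines and mostly more in LLC1. Of 12 tested members of the list, 10 were called higher in LLC1 (40.5% of all genes), 1 higher in 168FARN and 1 was not called, with a median log2 fold change of -0.58. Of these only Snai2, which encodes Slug, a repressor of E-cadherin, differed by at least 4-fold. Snai2 was at 1.07, 1.25 and 1.02 CPM in 168FARN and 58.5, 63.2 and 61.8 CPM in LLC1, so the lines did not overlap (log2 fold change -5.77 ± 0.0856, adjusted p = 5.7e-09). Prrx1, the factor that the study deleted in the fibroblasts, was expressed in both cancer lines. It stood at 84.3, 85.5 and 87.2 CPM in 168FARN and at 223, 236 and 186 CPM in LLC1, and every LLC1 library lay above every 168FARN library (log2 fold change -1.33 ± 0.0868, adjusted p = 3.5e-06). Zeb2 was at 30.3 ± 0.127 CPM in 168FARN and 83.9 ± 15.7 in LLC1. Cdh2, the gene of N-cadherin, was off in 168FARN (3, 0 and 0 counts) and at 13.7 ± 1.13 CPM in LLC1, at least 249-fold higher. Vim, the gene of the mesenchymal filament vimentin, was high in both, at 2214 ± 60.5 and 3131 ± 168 CPM.

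Pdpn, the gene of podoplanin, a membrane mucin of fibroblasts and invading tumour cells, was at 979, 972 and 993 CPM in 168FARN and 0.631, 0.678 and 0.816 in LLC1 (log2 fold change 10.43 ± 0.100, adjusted p = 1.6e-09). Cd34, a sialomucin of progenitor cells and of stromal cells, was at 990, 996 and 999 CPM against 0.237, 0.384 and 0.361. Within 168FARN both were nearly constant, and LLC1 had 18 to 30 counts of Cd34 and 48 to 61 of Pdpn in a library.

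Of 17 tested collagen genes 6 were called higher in 168FARN and 9 higher in LLC1, and at the 4-fold rule 5 were higher in 168FARN (11.5% of all genes) and 2 higher in LLC1 (9.58%). Col3a1, a fibrillar collagen of soft tissues, was at 6.79, 9.02 and 8.09 CPM in 168FARN and 1712, 1621 and 1624 CPM in LLC1, a 207-fold difference (log2 fold change -7.69 ± 0.121, adjusted p = 6.2e-09). In the other direction Col4a5, a chain of basement membrane collagen, was at 125, 129 and 119 CPM in 168FARN and had 2, 0 and 0 counts in LLC1, which is at least 3166-fold higher in 168FARN. Col6a3, a chain of microfibrillar collagen, was at 35.8 ± 0.589 CPM in 168FARN and 0 counts in LLC1. The major basement membrane chains Col4a1 and Col4a2 were expressed by both lines and lay within 2-fold of each other, with log2 fold changes of -0.39 and -0.86.

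Of 25 tested matrix glycoproteins 10 were called higher in 168FARN and 13 higher in LLC1 (42.7% and 40.5% of all genes), 6 and 7 of them by at least 4-fold (11.5% and 9.58%). Nid1, a linker of basement membrane networks, was in LLC1 at 429, 443 and 346 CPM against 0.278, 0.137 and 0.160 in 168FARN. Vcan, the gene of the proteoglycan versican, was at 201 ± 42.4 CPM in LLC1 and 0.197 ± 0.092 in 168FARN, and Fbln1 at 78.9 ± 4.50 CPM in LLC1 and 0 counts in 168FARN. Thbs2 was at 1430 ± 95.0 CPM in LLC1 against 130 ± 1.86 in 168FARN, while its relative Thbs1 went the other way, at 1.24 ± 0.276 against 54.1 ± 1.31 CPM. Serpinh1, the collagen chaperone, had 26, 16 and 33 counts in 168FARN. In LLC1 it was at 510, 504 and 1068 CPM, so that a single library was far above the other 2, yet all 3 lay far above 168FARN.

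Itga6, a laminin receptor subunit, was at 2.36, 2.87 and 1.64 CPM in 168FARN and 369, 374 and 303 in LLC1 (log2 fold change -7.23 ± 0.210, adjusted p = 6.4e-08). Itgb4, the β subunit that pairs only with the Itga6 product, was at 97.2, 93.3 and 91.6 CPM in 168FARN and 0.158, 0.294 and 0.268 in LLC1 (log2 fold change 8.60 ± 0.127, adjusted p = 5.7e-09). Each line was thus low in a different member of this pair. Of 18 tested integrins, 8 were called higher in each line (42.7% of all genes in 168FARN and 40.5% in LLC1). Itga8 was at 30.6 ± 0.475 CPM in 168FARN and 0 counts in LLC1.

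Proteases of the matrix differed member by member. Of 19 tested, 7 were called higher in 168FARN and 10 higher in LLC1 (42.7% and 40.5% of all genes), with a median log2 fold change of -1.18. Mmp9, a gelatinase, was at 320, 317 and 315 CPM in 168FARN and 4.72, 4.88 and 4.44 in LLC1 (log2 fold change 6.08 ± 0.0579, adjusted p = 1.6e-09). Mmp14, the membrane-bound collagenase, was at 57.7, 60.1 and 60.6 CPM in 168FARN and 463, 452 and 496 in LLC1 (log2 fold change -2.98 ± 0.0537, adjusted p = 1.1e-08). Timp2 did not pass the test, at 427 ± 1.93 and 411 ± 8.88 CPM.

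Interferon-stimulated genes, whose products sense and block viruses, were higher in LLC1 for most members. All 40 members were tested, and 35 were called higher in LLC1 (40.5% of all genes), 11 of them by at least 4-fold (9.58% of all genes), 2 higher in 168FARN and 3 not called. Their median log2 fold change was -1.05 and the list's summed level was 2346 to 2371 CPM in 168FARN and 4659 to 4840 in LLC1. Cmpk2, a mitochondrial nucleotide kinase, had 4, 8 and 4 counts in 168FARN and 37.6, 34.2 and 34.0 CPM in LLC1 (log2 fold change -8.49 ± 0.130, adjusted p = 5.9e-09). Rsad2, the gene of viperin, which lies beside Cmpk2 in the genome, was at 21.7 ± 1.07 CPM in 168FARN and 331 ± 7.41 in LLC1. Ifit3 was at 10.6 ± 0.275 CPM and 237 ± 9.09, a 22.3-fold difference, and its near copy Ifit3b at 10.2 ± 0.799 and 101 ± 3.25. Irf9, a factor of the interferon signal, was not called, at 40.3 ± 1.32 and 42.7 ± 0.816 CPM, nor were Ifitm3 and Gbp2. Ifi27 and Dhx58 were the 2 members higher in 168FARN, with log2 fold changes of 0.93 and 1.38.

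**Figure D3:**
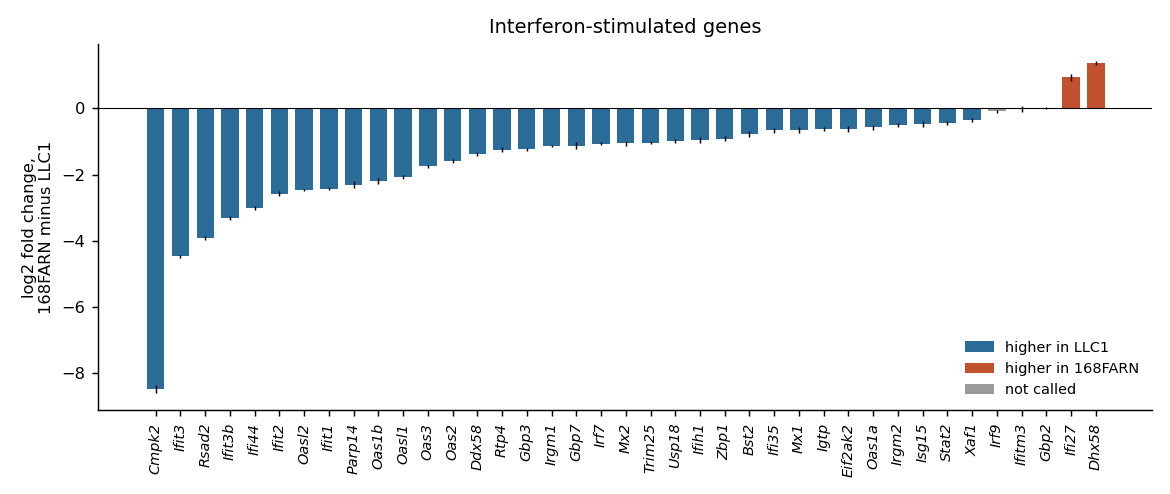
Bars give the log2 fold change (168FARN minus LLC1) of 39 of the 40 interferon-stimulated genes and the thin lines its SE, blue where called higher in LLC1, orange-red where called higher in 168FARN and grey where not called. Cmpk2 at -8.49 is far below the rest, and 34 bars are blue.

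Interferon acts through a DNA element, the ISRE, whose core letters are GAAANNGAAA. The promoters of list members that differed together are shown so that the element can be seen. RefSeq windows of 300 bases (250 before and 50 after the start site, build GRCm38.p6) were found for 10133 of the genes tested and 29 of the 40 interferon-stimulated genes. The letters stood on either strand in 379 of the 10133 (3.74%) and in 19 of the 29 (65.5%). Among the 26 members with a window that were called higher in LLC1, 17 (65.4%) held them, and among the 9 with at least a 4-fold difference, 4 (44.4%) did, so that the members with the larger differences did not hold them more often in these windows. A match is a description and not a binding site. In the 250 bases before the start site of 3 of these 4 genes, each printed 5′ to 3′ on the strand of its gene, capitals mark the matches, here all of them the reverse complement of the letters above:
Ifit3 (chr19:34583279-34583528, plus strand): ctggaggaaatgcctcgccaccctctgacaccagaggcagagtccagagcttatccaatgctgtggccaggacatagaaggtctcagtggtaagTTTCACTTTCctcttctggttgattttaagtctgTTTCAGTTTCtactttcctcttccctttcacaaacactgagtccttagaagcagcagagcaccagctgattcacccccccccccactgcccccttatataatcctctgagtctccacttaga
Rsad2 (chr12:26456453-26456702, minus strand): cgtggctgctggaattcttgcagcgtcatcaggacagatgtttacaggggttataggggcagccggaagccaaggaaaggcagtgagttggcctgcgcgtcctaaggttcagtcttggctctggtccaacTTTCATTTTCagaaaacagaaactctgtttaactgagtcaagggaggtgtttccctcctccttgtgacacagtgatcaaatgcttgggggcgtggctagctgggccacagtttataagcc
Ifit1 (chr19:34640639-34640888, plus strand): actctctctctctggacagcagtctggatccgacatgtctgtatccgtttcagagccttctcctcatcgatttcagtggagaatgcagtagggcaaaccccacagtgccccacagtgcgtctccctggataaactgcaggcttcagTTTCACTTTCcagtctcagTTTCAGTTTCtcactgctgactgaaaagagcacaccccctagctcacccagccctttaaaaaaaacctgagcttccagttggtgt
The Ifit3 and Ifit1 windows each hold 2 matches and the Rsad2 window 1.

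Chemokines and cytokines, which recruit leukocytes, gave profiles that crossed. Of 34 tested, 17 were called higher in 168FARN and 12 higher in LLC1 (42.7% and 40.5% of all genes), 10 and 8 of them by at least 4-fold (11.5% and 9.58%). Cxcl5, an attractant of neutrophils, was at 1121, 1080 and 1126 CPM in 168FARN and 45.1, 47.0 and 47.2 in LLC1 (log2 fold change 4.58 ± 0.0460, adjusted p = 1.6e-09). Cxcl3 was at 70.8 ± 1.89 CPM against 1.47 ± 0.0346, and Csf3, the granulocyte colony-stimulating factor, at 74.8 ± 3.95 against 0.843 ± 0.163. Ccl5, an attractant of T cells, was at 6.42, 6.20 and 7.21 CPM in 168FARN and 264, 306 and 355 in LLC1, and Cxcl10, itself induced by interferon, at 6.66, 7.75 and 8.09 CPM against 321, 320 and 349 (log2 fold change -5.46 ± 0.0918, adjusted p = 8.3e-09). Ccl2, a monocyte attractant, was abundant in both, at 1356 ± 34.3 and 657 ± 60.4 CPM. Cxcl12 was at 10.8 ± 0.424 CPM in 168FARN and 0 counts in LLC1.

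Slpi, a protease inhibitor of mucosal secretions, was at 4653, 4649 and 4560 CPM in 168FARN and 174, 183 and 227 in LLC1, the largest difference in mean CPM of any ranked gene. Lcn2, which binds bacterial siderophores, was at 1617 ± 23.6 against 167 ± 10.5 CPM, and complement C3 at 932 ± 24.6 against 98.0 ± 3.67. Both were expressed in LLC1 as well, at levels 9.66-fold and 9.51-fold lower. Grem1, a secreted BMP antagonist, was at 582 ± 3.76 against 66.5 ± 11.5 CPM.

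Of 21 tested genes of antigen presentation by MHC class I, 12 were called higher in 168FARN (42.7% of all genes) and 6 higher in LLC1, and at 4-fold 7 were higher in 168FARN and 1 in LLC1. The immunoproteasome subunit genes Psmb8 and Psmb9 were higher in 168FARN, with Psmb8 at 215, 224 and 209 CPM against 24.4, 20.5 and 26.1 in LLC1 and Psmb9 at 43.7 ± 3.42 against 5.03 ± 0.831. The light chain gene B2m was higher in LLC1, at 1785 CPM against 1034, and the classical heavy chain gene H2-D1 was not called. H2-Q4 was at 248 ± 5.99 CPM in 168FARN and 2.36 ± 0.262 in LLC1. Class I genes have near-identical copies and reads can be split between them, so the values of H2-Q4 and of other H2 genes are uncertain. The lines also come from mice of different strains, and reads of both were placed on the same reference, mm10. The part of this in the H2 values was not tested.

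Igf2, the fetal insulin-like growth factor, was at 1378, 1250 and 2100 CPM in 168FARN and had 0, 3 and 0 counts in LLC1, at least 40071-fold higher. The 168FARN libraries differed among themselves more for Igf2 (SD 458 CPM) than for most genes named here. Of 39 tested ligands, 14 were called higher in 168FARN and 23 higher in LLC1 (40.5% of all genes), 7 and 13 of them by at least 4-fold. Fgf7 and Fgf10, stromal ligands that act on epithelium, were higher in LLC1, Fgf7 at 161 ± 4.78 CPM in LLC1 and 1.32 ± 0.167 in 168FARN and Fgf10 at 106 ± 9.95 and 0.844 ± 0.0341. Pdgfc, a growth factor for mesenchymal cells, was at 69.1 ± 2.19 and 1.22 ± 0.0813. Tgfa and Bmp4 were at 0 counts in 168FARN and at 6.12 ± 0.213 and 13.6 ± 0.410 CPM in LLC1.

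Of 34 tested receptors, 14 were called higher in 168FARN and 16 higher in LLC1 (42.7% and 40.5% of all genes), 5 in each direction by at least 4-fold (11.5% and 9.58%). Fgfr2, whose epithelial form binds FGF7 and FGF10, was at 69.9, 73.3 and 67.0 CPM in 168FARN and 0 counts in all 3 LLC1 libraries, at least 1781-fold higher. The line that made the 2 ligands had no counts of this receptor gene, and it had Fgfr1 at 631 ± 16.2 CPM against 231 ± 4.12 in 168FARN. Ephb2, a guidance receptor, was at 69.8, 66.3 and 64.7 CPM in 168FARN and 0 counts in LLC1, with Ephb4 at 88.1 ± 3.43 against 2.65 ± 0.110. Ngfr, the neurotrophin receptor, was at 33.0 ± 1.54 CPM in 168FARN and off in LLC1, while Mertk and Ror2 were at 22.3 ± 2.64 and 6.67 ± 0.139 CPM in LLC1 and 0 counts in 168FARN. Igf2r, which clears IGF2 from the surface, was at 299 CPM in LLC1 and 71.5 in 168FARN.

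**Figure D4:**
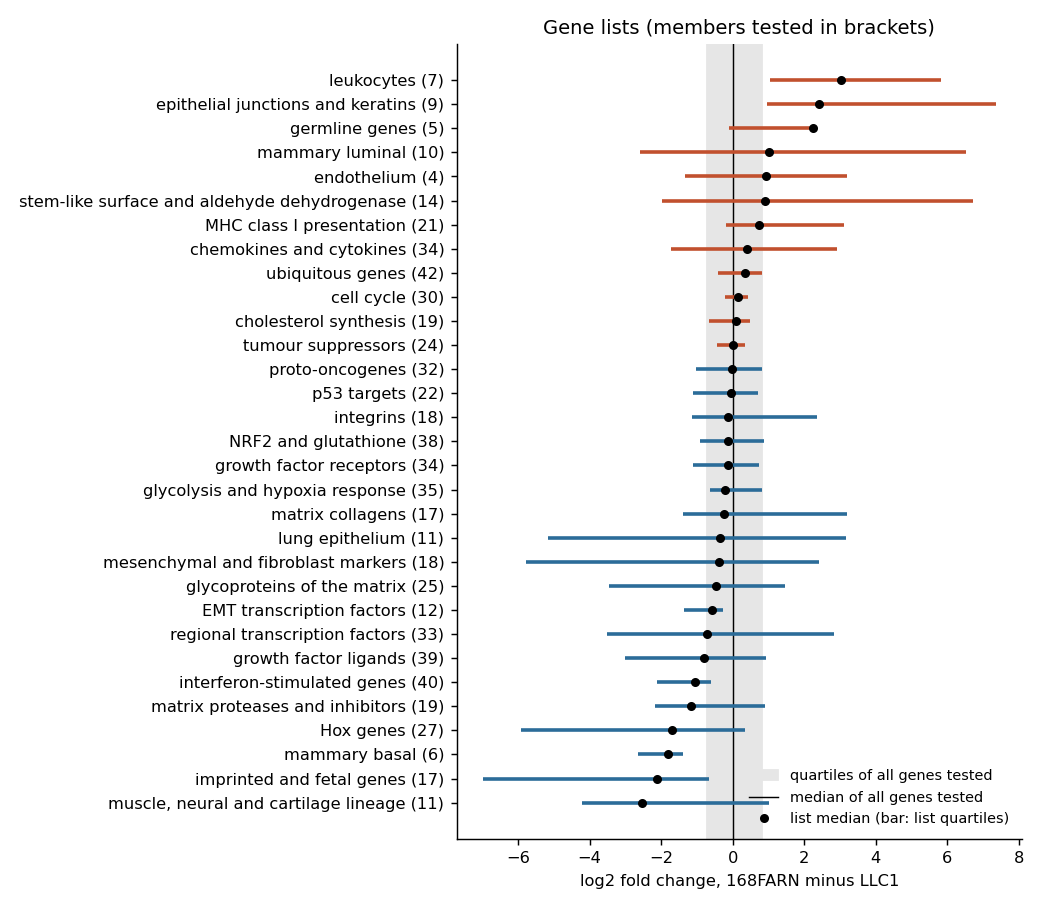
Points give the median log2 fold change (168FARN minus LLC1) of the tested members of each gene list and bars their quartiles, orange-red for medians above 0 and blue for those below; the grey band spans the quartiles of all 13414 genes. Lists of cell cycle and cholesterol synthesis genes lie within the band, while the bars of Hox genes and of imprinted and fetal genes extend far to the LLC1 side. Several members of these lists were off in 168FARN and passed the filter only through LLC1.

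Hox genes hold the address of a cell along the body and limbs. Of 27 tested Hox genes, 18 were called higher in LLC1 (40.5% of all genes) and 6 higher in 168FARN, and 13 against 3 by at least 4-fold (9.58% and 11.5% of all genes), with a median log2 fold change of -1.70. Several, Hoxd8 among them, passed the filter only through LLC1, so nothing is read from the counts or the median. In the D cluster 3 neighbouring genes were far higher in LLC1, with Hoxd8 at 30.9, 28.6 and 32.1 CPM and 0 counts in 168FARN, Hoxd9 at 21.9 ± 1.07 CPM against 0.0799 ± 0.0918, and Hoxd10 at 10.4 ± 0.721 against 0.0933 ± 0.0408. Hoxd11, Hoxd12 and Hoxd13, further toward the 5′ end, were below the filter in both lines. Hoxa11 and Hoxb7 were off in 168FARN and at 6.86 ± 0.669 and 8.87 ± 0.386 CPM in LLC1. The 3 genes higher in 168FARN by at least 4-fold were Hoxc4, Hoxc5 and Hoxc6. Hoxc4 and Hoxc5 had at most 13 and 14 counts in a 168FARN library and 0 in LLC1, so they passed only through 168FARN. Levels of Hox genes were low in both lines, with a summed level of 46.0 to 48.8 CPM in 168FARN and 183 to 195 CPM in LLC1.

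Other regional factors were divided. Of 33 tested, 11 were called higher in 168FARN and 20 higher in LLC1 (42.7% and 40.5% of all genes), 10 and 11 by at least 4-fold (11.5% and 9.58%). LLC1 expressed Dlx2, a factor of the developing forebrain, at 33.1 ± 1.29 CPM and Gata4, a factor of heart and endoderm, at 8.59 ± 0.113 CPM, both at 0 counts in 168FARN. In turn 168FARN expressed Runx3 at 4.93 ± 0.349 CPM and Irx3 at 6.25 ± 0.776, both at 0 counts in LLC1. In the list of muscle, neural and cartilage genes, 3 of 11 tested were called higher in 168FARN and 7 higher in LLC1 (42.7% and 40.5% of all genes). By at least 4-fold there were 2 and 6 (11.5% and 9.58% of all genes), and the median log2 fold change was -2.55. Ncam1 was at 61.3 ± 1.48 CPM in LLC1 and 0 counts in 168FARN, Nes, the gene of the progenitor filament nestin, at 169 ± 6.12 against 8.61 ± 0.532, and Sox2, a stem cell factor, at 14.5 ± 0.627 CPM in 168FARN and 0 counts in LLC1.

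Imprinted genes are read from a single parental copy, and they were listed together with fetal genes that are not imprinted. Of 17 tested genes of this list, 13 were called higher in LLC1 (40.5% of all genes) and 3 higher in 168FARN (42.7%). By at least 4-fold there were 10 and 2 (9.58% and 11.5% of all genes), and the median log2 fold change was -2.11. Grb10, Peg10, Sgce and Peg3 were all at 0 counts in the 3 168FARN libraries. They passed the filter only through LLC1, so nothing is read from the counts or the median. In LLC1 Grb10, an adaptor that dampens insulin signalling, was at 118, 124 and 109 CPM, and Peg10 at 116, 122 and 90.9 CPM. Its neighbour Sgce was at 25.0 ± 0.953 CPM and Peg3 at 50.4, 53.2 and 26.4 CPM in LLC1, where replicate 3 was the lowest for all 4. Igf2 went the other way. Igf2bp3, a fetal RNA-binding protein, was at 0.853 ± 0.171 CPM in 168FARN and 31.1 ± 2.65 in LLC1.

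No tumour suppressor reached a 4-fold difference among 24 tested, 7 called higher in 168FARN and 10 higher in LLC1 (42.7% and 40.5% of all genes). Cdkn2a and Cdkn2b, neighbouring inhibitors of the cell cycle, had 0 counts in all 6 libraries, while Mtap, next to them in the genome, was at 848 ± 7.40 CPM in 168FARN and 266 ± 9.02 in LLC1. Trp53, the gene of p53, was at 169 ± 6.40 and 116 ± 4.47 CPM, and Mdm2, its target and inhibitor, at 518 ± 9.48 and 178 ± 8.02 CPM. Of 32 tested proto-oncogenes, 15 were called higher in each line (42.7% and 40.5% of all genes), 3 and 2 of them by at least 4-fold (11.5% and 9.58%). Myc stood out, at 136, 107 and 130 CPM in 168FARN and 954, 983 and 998 in LLC1 (log2 fold change -2.97 ± 0.0947, adjusted p = 9.3e-08). Hras, a signalling GTPase, was 4.44-fold higher in 168FARN.

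Cell cycle and cholesterol genes stayed within 4-fold. Of 30 cell cycle genes, 16 were called higher in 168FARN and 9 higher in LLC1, none by as much as 4-fold, and the summed level was 5205 to 5318 CPM in 168FARN and 5039 to 5147 in LLC1. Mki67 was not called (log2 fold change -0.12 ± 0.127). Tyms and Rrm2, which serve nucleotide synthesis, were 2.78-fold and 2.75-fold higher in 168FARN and Rrm1 differed by 0.16 on the log2 scale, while Mcm4, a replication helicase subunit, was 2.20-fold higher in LLC1. Of 19 cholesterol synthesis genes none differed by 4-fold, 9 being called higher in each line. Ubiquitous genes, 42 in all, had 23 called higher in 168FARN and 15 higher in LLC1, with 3 past 4-fold.

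Egln3, an oxygen sensor, was at 0.258, 0.319 and 0.140 CPM in 168FARN and 232, 228 and 226 in LLC1 (log2 fold change -9.85 ± 0.154, adjusted p = 6.2e-09), and Adm and Pfkfb3 were also at least 4-fold higher in LLC1. Of the 35 tested genes of glycolysis and hypoxia, 15 were called higher in 168FARN and 18 higher in LLC1 (42.7% and 40.5% of all genes). By at least 4-fold there were 2 and 3 (11.5% and 9.58% of all genes), and the median log2 fold change was -0.21. Among those higher in 168FARN was Ldhb, a lactate dehydrogenase subunit, at 38.4 ± 0.931 CPM in 168FARN and 0 counts in LLC1. Of 38 tested genes of NRF2 and glutathione, which detoxify, 5 in each direction differed by at least 4-fold. Nqo1, a quinone reductase, was at 2.16 ± 0.211 CPM in 168FARN and 72.1 ± 3.57 in LLC1, whereas Mgst1 was at 187 ± 3.73 against 0.965 ± 0.269 CPM. Aldh3a1, an aldehyde dehydrogenase, was at 244 ± 5.98 CPM in 168FARN and 0.560 ± 0.131 in LLC1.

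Other genes with the largest folds were listed at 0 counts in 1 of the lines. On the 168FARN side these were App (197, 203 and 195 CPM), the gene of the amyloid precursor protein, Plcg2 (161, 170 and 155), a phospholipase of blood cells, and Basp1, Oacyl, Cox7b2 and Igsf3 at 54.1 to 108 CPM on average. On the LLC1 side they were Slc25a4 (325, 303 and 349 CPM), a mitochondrial carrier of ADP and ATP, Nrn1 (147, 152 and 155), Fstl1, Myh10, Casc4, Rab6b, Akap11 and Adgrg6, at means of 103 to 151 CPM for the last 7. App, Slc25a4, Myh10 and Tmsb4x (0 counts in 168FARN and 50.9 ± 3.95 CPM in LLC1) are used by nearly all cells, and they are said here only to be listed at 0. Each had counts in the WT coculture libraries of the same line, with means of 1.28 CPM for App in LLC1 and of 15.6, 7.57 and 33.1 CPM for Slc25a4, Myh10 and Tmsb4x in 168FARN. In sgPrrx1 coculture the means were lower, 0.00982 CPM for App in LLC1 and 4.61, 1.60 and 0.156 CPM for the other 3 in 168FARN. Whether any gene at exactly 0 was missed in the counting of the libraries without fibroblasts cannot be told from the files, and this bears on the 138 and 178 genes on in a single line.

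Near-identical copies of a gene can divide its reads. Atp6v0c, a proton pump subunit, had 12767 to 16887 counts in 168FARN and 238 to 672 in LLC1, whereas its copy Atp6v0c-ps2 had 1 count in each 168FARN library and 7540 to 8819 in LLC1. The 2 summed to 256 to 261 CPM in 168FARN and 106 to 121 CPM in LLC1. Genes with such copies were left out of the ranked genes.

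Genes that were on in a single line lay beside each other at 6 places. On chromosome 16 (chr16:48283735-48630905, GRCm38.p6) Dppa4, Dppa2 and Morc1, genes of the germ line and early embryo, were at 43.8 ± 2.41, 43.1 ± 1.36 and 21.0 ± 0.604 CPM in 168FARN and at 0 counts in LLC1. On chromosome 6 (chr6:116624016-117181368) Zfp422, Rassf4 and Cxcl12 were at 11.2 ± 0.440, 10.7 ± 0.611 and 10.8 ± 0.424 CPM in 168FARN and at 0 counts in LLC1. The other 4 places held Serpina1 genes, Rhox2 genes, Gsta1 with a predicted gene and Mb21d1, and a zinc finger gene beside predicted ones, and reads of the families among these may be split. Whole chromosomes leaned as well: the median log2 fold change was highest on chromosomes 6 (0.40), 11 (0.38) and 18 (0.30) and lowest on chromosomes 8 (-0.38), 9 (-0.36) and 3 (-0.33). On chromosome 8, 198 of 715 genes (27.7%) were called higher in 168FARN and 421 (58.9%) higher in LLC1. On chromosome 11 the counts were 646 (56.8%) and 298 (26.2%) of 1138. Over all genes the shares were 42.7% and 40.5%. The chromosomes named are the extremes, picked after all were seen. No test was made over chromosomes.

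Most of the differences held when fibroblasts were present. The cocultures share no library with the spheroids without fibroblasts, but they add a second difference, since each line had its own fibroblasts, and RNA of fibroblasts in the sorted fraction cannot be told apart from RNA made by the cancer cells. Line and table cannot be told apart in the cocultures either, so a difference made by the processing could be kept there as well. Of the 1537 genes at least 4-fold higher in 168FARN alone, 1414 could be tested in WT coculture and 1374 of these (97.2%) were called higher in 168FARN there, against 42.7% of all genes. Of the 1285 higher in LLC1 alone, 1243 were tested and 1162 (93.5%) were called higher in LLC1, against 37.9% of all genes. In sgPrrx1 coculture the shares were 96.1% and 94.6% (28.4% and 24.7% of all genes). Without LLC1 sgPrrx1 replicate 3, a library that stood apart, they were 97.0% and 96.8% (45.1% and 41.3% of all genes). Over 13183 genes the line difference alone and in WT coculture had a Pearson r of 0.888, a description across genes that are not independent. The difference itself differed between growth alone and WT coculture, by edgeR's interaction term, for 51.2% of the 14184 genes tested. It did so by at least 4-fold for 832 of the 14184 and for 19 of the 39 ranked genes, which were chosen for large differences alone.

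**Figure D5:**
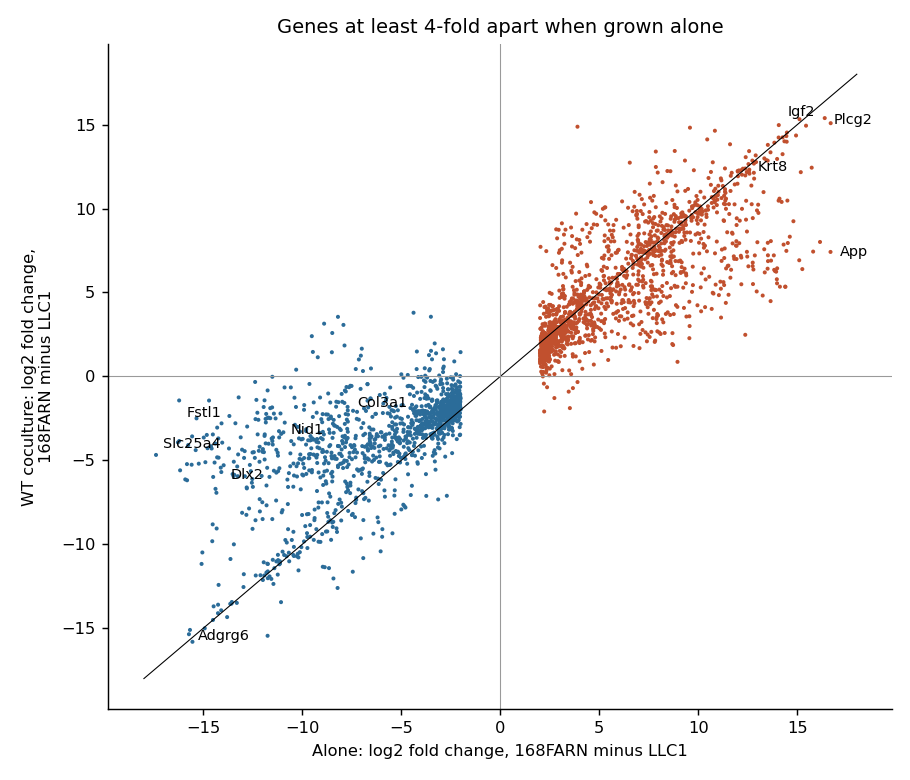
Each point is a gene at least 4-fold apart between the lines alone, with its log2 fold change (168FARN minus LLC1) alone on the horizontal axis and in WT coculture on the vertical axis; the black line marks equal values. Orange genes were higher in 168FARN alone and blue ones in LLC1 alone, and many blue genes with the largest differences alone, such as Fstl1 and Slc25a4, lie nearer to 0 in coculture, while Adgrg6 stays on the line.

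Genes that were off in a line when it grew alone did not all stay off. Of the 138 genes off in LLC1, 57 were off in all 6 LLC1 coculture libraries, and 33 had more than 3 counts in all 3 WT libraries, against 1 in all 3 sgPrrx1 libraries. Of the 178 genes off in 168FARN, 37 were off in all 6 168FARN coculture libraries, and 117 were above 3 counts in all 3 WT libraries, against 87 in all 3 sgPrrx1 libraries. Among those that stayed at 0 counts or near it were Adgrg6, Foxa2, Tgfa and Peg3 in 168FARN and Plcg2, Ephb2, Itga8 and Sox2 in LLC1. The summed level of the 7 fibroblast markers in 168FARN was 747 to 822 CPM in WT coculture, against the 118 to 123 CPM of 168FARN alone, and their part in these counts was not tested. In LLC1 the sum of the same markers was 1231 to 1268 CPM in WT coculture, below the 1708 to 1812 CPM of LLC1 alone. The 3 endothelial markers summed to 5.51 to 6.52 CPM in 168FARN and 5.80 to 6.95 in LLC1 in WT coculture, and to 0.421 to 0.623 and 0 to 0.0803 alone. The 4 leukocyte markers summed to 37.9 to 39.3 CPM in LLC1 in WT coculture and 16.4 to 17.7 alone, and to 14.6 to 17.1 and 22.7 to 24.2 CPM in 168FARN. Cdkn2a, at 0 counts in both lines alone, averaged 8.94 CPM in 168FARN and 2.04 in LLC1 with WT fibroblasts.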

How the data were processed

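RNA was measured in 18 libraries, of which the 6 of spheroids without fibroblasts form the main comparison. The deposited values are counts of reads per gene, made by the authors from 100-base paired reads of unstated strand with Trimmomatic, STAR and HTSeq on mm10, per the labels. Batch correction with ComBat-seq is described in the methods, and whether it was applied to these counts is not given in the sources used here. All value columns were used. The tables were joined by symbol ignoring case (4 rows with repeated names in each, and 8 and 85 names found in only 1 table, were left out), and 99.3% of joined symbols matched RefSeq.

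Genes kept by filterByExpr were fitted with edgeR 4.0.16 (TMM, glmQLFit, glmQLFTest, R 4.3.3) with line as the term, and p-values were adjusted by Benjamini-Hochberg over all 13414 genes. The fit was tested on simulated data. Errors are SD over 3 libraries, or SE of a log2 fold change. Named genes are, per direction, the 10 largest folds and the 10 largest CPM differences among genes called with at least 4-fold, a mean of at least 100 counts and no overlap between lines (predicted genes and near-identical copies left out), up to 6 such members per gene list, defining markers and neighbouring genes. Some were named after their values were seen, among them Prrx1, Zeb2, Vim, Fgf7, Fgf10, Pdgfc, Ephb4, Thbs1, Trp53, Mdm2, Cdkn2a, Mtap, Ccl2, Tyms, Timp2, Mfge8, Lyz2, Cd14 and Rrm1. The comparison, the 32 gene lists and the tests were chosen with earlier results of these data known. Alternatives were RLE scaling, no scaling, other count filters, all 18 libraries in the fit, a replicate block, glmTreat, limma voom 3.58.1, DESeq2 1.42.0 and leaving out each library. Some members of the ranked genes and lists enter the counts and are not reported here by name. The replicate numbers did not pair the samples.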

Additional observations from a re-analysis of the deposited data

Results flagged for a closer look

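For 19 of the 39 ranked genes the difference between the lines itself differed between growth alone and WT coculture. The interaction term was at least 2 on the log2 scale and passed edgeR's test. Of all 14184 genes 832 met both rules, and 51.2% had an adjusted p under 0.05. The ranked genes were chosen for large differences in the libraries without fibroblasts, which enter the interaction, so nothing is read from the count. Negative values mean that the difference moved toward LLC1 in coculture and positive ones that it moved toward 168FARN. Of the 19 ranked genes, 18 are given. On the side higher in 168FARN alone the interaction was -9.29 for App, -8.40 for Basp1, -5.59 for Igsf3, -2.99 for Pdpn, -2.46 for Slpi and -2.04 for C3. C3 averaged 932 CPM in 168FARN alone and 178 in WT coculture, and App was at 1.28 CPM in LLC1 there.

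On the side higher in LLC1 alone the interaction was 5.40 for Col3a1, 6.70 for Serpinh1, 7.63 for Nid1, 9.64 for Peg10, 9.78 for Grb10, 10.58 for Casc4, 10.61 for Rab6b, 11.68 for Akap11, 12.36 for Nrn1, 12.38 for Myh10, 12.72 for Slc25a4 and 14.79 for Fstl1. In 168FARN with WT fibroblasts Col3a1 averaged 232 CPM, Fstl1 62.2 and Slc25a4 15.6. Where a line was at 0 counts alone the size of the interaction depends on the prior count of the fit. The summed level of 7 fibroblast markers in 168FARN went from at most 123 CPM alone to at least 747 CPM in WT coculture, and its part in these values was not tested.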

How the results depend on the processing

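The 11158 calls became 4461 (2388 higher in 168FARN, 2073 in LLC1) when glmTreat asked for an absolute log2 fold change over 1. Requiring at least 10 counts in every library removes genes that are off in a line, and the genes called with at least 4-fold fell from 2822 to 950 (482 and 468). Setting on at 1 CPM gave 297 genes on in 168FARN only and 291 in LLC1 only, and at 10 CPM 91 and 116. The other alternatives kept each count within 1.5 times: calls ranged from 9173 with at least 10 counts in every library and 10191 with all 18 libraries in the fit to 11792 without LLC1 replicate 3, with 11581 by DESeq2 and 11137 by limma voom. Leaving out a library gave 10741 to 11792 calls and 2929 to 2986 with at least 4-fold. Asking for 4-fold in coculture too lowered the kept shares from 95.4% to 79.5% (WT) and 85.2% (sgPrrx1).

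The same-numbered libraries of the lines had deviations with correlations of -0.183, -0.0705 and 0.0511, so the numbers share only a name. With the replicate block 10738 genes were called, 2809 with at least 4-fold.

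Of 230 named genes tested, 201 kept sign and call under every alternative in which they were tested. No named gene reversed, and of 3328 values 36 lost the call and 6 gained it, 23 of the 42 under glmTreat. Of 960 list counts 883 stayed within 1.5 times. With 3 libraries a line from separate tables, no library set apart from line and run exists, and the small spread (biological coefficient of variation 0.102, with 0.0685 in 168FARN and 0.127 in LLC1, where replicate 3 stood furthest from the others) lets small differences pass.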
